A study of Mus musculus with 2 samples.

Results

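The serotonin receptor genes Htr1a, Htr1b, Htr1d, Htr1f, Htr2a, Htr2c, Htr3a, Htr4, Htr5a and Htr7 were followed across the cell types of the mouse amygdala. These 10 genes were chosen by name, out of 14 serotonin receptor genes and 32285 genes in all, and each had UMIs in both libraries. A UMI tags 1 captured RNA molecule. Single nuclei of the amygdala of C57BL6/J mice aged 6 to 8 weeks were profiled from the 5′ end of polyA RNA, with 1 library from WT mice and 1 from Sema6d-/- mice (labelled KO). The number of animals behind a library and the part of Sema6d that the allele removes are not given in the labels.

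Serotonin reaches the amygdala in axons of the raphe nuclei, and a target cell reads it through the receptors it carries. The Htr1 and Htr5 receptors couple to Gi and Go proteins and lower cAMP, the Htr2 receptors couple to Gq and phospholipase C, Htr4, Htr6 and Htr7 couple to Gs and raise cAMP, and Htr3a forms an ion channel. Nuclear RNA reports transcripts, not receptors at the membrane.

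Each genotype had 1 library, so no test between genotypes was possible. Intervals are exact 95% intervals that cover counting error only, and the spread between animals is not known. Sema6d was not lower in the library labelled KO: it had 49216 UMIs in WT and 39021 in KO, or 632 and 686 CPM (counts scaled to 1000000 UMIs). Its RNA therefore goes against the label, or does not check it, since the removed part is unknown, and every direction below is between the libraries labelled WT and KO. After filtering there were 10267 WT and 7921 KO nuclei, with medians of 7164 and 6421 UMIs, and 110 barcodes occurred in both. Neurons were 71.7% of WT and 59.2% of KO nuclei, and oligodendrocytes 5.84% and 15.3%.

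Nuclei were placed by marker genes into groups called gates, and 19 gates had at least 50 nuclei in each library: 10 inhibitory, 5 excitatory and 4 glial. Astrocytes, oligodendrocytes, their precursors and microglia had all of their listed markers at the highest level of the 6 broad classes. The same markers placed the nuclei, so this was largely fixed by the gating and is no check of the labels. D1 and D2 medium spiny-like neurons are striatal-type GABA projection neurons. Intercalated-like neurons are the GABA cell clumps between the amygdala nuclei. MGE and CGE interneuron-like, basolateral-like and claustrum-like gates and gates named by their list genes make up the rest. Some labels held only in part. The Drd2/Kctd8 gate had Rgs9, a medium spiny marker, at 967 and 960 CPM, near the D2 gate at 1293 and 1328, and both gates drew on clusters 1 and 6. Cluster 6 also held 116 of the 138 WT and 80 of the 99 KO nuclei of the Prkcd-list gate. The Prkcd-list gate had less Prkcd (26.9 and 45.2 CPM) than astrocytes (41.2 and 52.2). The Tcf7l2/Slc17a6 gate had less Tcf7l2 (102 and 148) than astrocytes (375 and 352). These gates are called by their lists and not by a cell type.

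Upstream sequence is shown for 3 members on which the results turn: Htr1d, whose compared gates all pointed one way between the libraries, Htr1f, which had 1 gate above all others, and Htr2c, which was present in every gate. Presence in every gate was shared by Htr1b, Htr1f, Htr2a, Htr4 and Htr7. The windows end at annotated starts, come from RefSeq on GRCm38.p6, run 5′ to 3′ on the gene's strand, and leave out annotated exon bases. Capitals mark matches on either strand to GGGCGG, known as the GC box, or to CCAAT. The TATA box TATAAA and the cAMP response half-site TGACG were searched too.
Htr1d first start, chr4:136423274-136423523, plus strand: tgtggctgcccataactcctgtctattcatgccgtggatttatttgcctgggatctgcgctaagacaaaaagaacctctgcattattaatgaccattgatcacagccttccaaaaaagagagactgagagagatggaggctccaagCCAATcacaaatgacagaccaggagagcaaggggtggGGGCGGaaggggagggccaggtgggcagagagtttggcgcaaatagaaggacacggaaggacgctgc
Htr1d second start, chr4:136424362-136424611, plus strand: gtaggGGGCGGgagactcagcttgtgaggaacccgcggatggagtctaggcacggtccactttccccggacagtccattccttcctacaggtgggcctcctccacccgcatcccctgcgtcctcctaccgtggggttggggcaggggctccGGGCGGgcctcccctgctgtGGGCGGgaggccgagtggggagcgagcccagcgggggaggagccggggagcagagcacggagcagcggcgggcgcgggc
Htr1f, chr16:65105855-65106034, minus strand: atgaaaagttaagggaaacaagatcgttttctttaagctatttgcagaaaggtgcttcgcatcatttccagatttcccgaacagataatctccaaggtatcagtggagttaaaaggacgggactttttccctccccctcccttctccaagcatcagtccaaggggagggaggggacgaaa
Htr2c, chrX:146962263-146962512, plus strand: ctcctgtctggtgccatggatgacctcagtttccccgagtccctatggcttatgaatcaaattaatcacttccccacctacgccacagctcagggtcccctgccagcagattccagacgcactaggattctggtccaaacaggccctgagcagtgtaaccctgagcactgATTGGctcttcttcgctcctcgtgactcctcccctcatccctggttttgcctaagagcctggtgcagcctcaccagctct

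The second Htr1d window held 3 GC boxes and 20 CpG dinucleotides. The first held 1 GC box, 1 CCAAT and 6 CpG. The Htr2c window held 1 CCAAT and 5 CpG, and the full 250-base Htr1f window held 7 CpG and no match. Over 32851 windows of 250 bases the median was 6 CpG, and 32.7% held a GC box, 33.8% CCAAT, 12.4% TATAAA and 17.8% TGACG. Matches describe letters and not bound sites. Windows were found for 8 of the 10 members.

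Levels in the broad neuron classes are given first, as CPM in WT and KO. In inhibitory neurons Htr1b had 67.9 and 74.3, Htr1f 204 and 191, Htr2a 56.5 and 50.4, Htr2c 366 and 412, Htr4 122 and 144 and Htr7 39.2 and 49.1. In excitatory neurons Htr1b had 17.8 and 23.9, Htr1f 241 and 210, Htr2a 84.8 and 59, Htr2c 254 and 291, Htr4 21.7 and 29.3 and Htr7 17.7 and 20.1. Of these genes, Htr1b, Htr2c, Htr4 and Htr7 were thus higher in inhibitory neurons in both libraries, and Htr1f and Htr2a higher in excitatory neurons. Levels of different genes are not compared with each other.

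Among the Gi-coupled receptors, Htr1f (chromosome 16, 64924729 to 65105854, GRCm38) had 1 gate above all others. Intercalated-like neurons held 768 CPM in WT and 724 in KO, above the next gate in both libraries beyond the counting intervals. Basolateral-like neurons followed at 405 and 407, then claustrum-like neurons at 346 and 392 and the Prkcd-list gate at 300 and 268, neighbours that did not separate in both libraries. The lowest neuron gate was Drd2/Sema3e/Alk at 42.5 and 40.7, and astrocytes had 22.6 and 12.3. The intercalated gate itself was uneven. Its cluster 4 held 973 and 939 CPM and cluster 24, led by Gpr149 and Lhfp, held 106 and 25.5, in a clustering made without serotonin receptor genes. After every nucleus was thinned to 2000 UMIs, 61.1% of WT and 57.2% of KO intercalated-like nuclei had an Htr1f UMI (75.6% of WT and 70.8% of KO unthinned, median depths 5243 and 5238 UMIs). The share was 3.85% of WT and 1.5% of KO in thinned astrocytes (5.6% of WT and 2.47% of KO unthinned, median depths 2658 and 2765). Astrocytes were the lowest of all gates for Htr1f, so their share is a low background. Microglia held 132 and 103 CPM, oligodendrocytes 60.5 and 32.0 and their precursors 40.9 and 20.2.

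**Figure D1:**
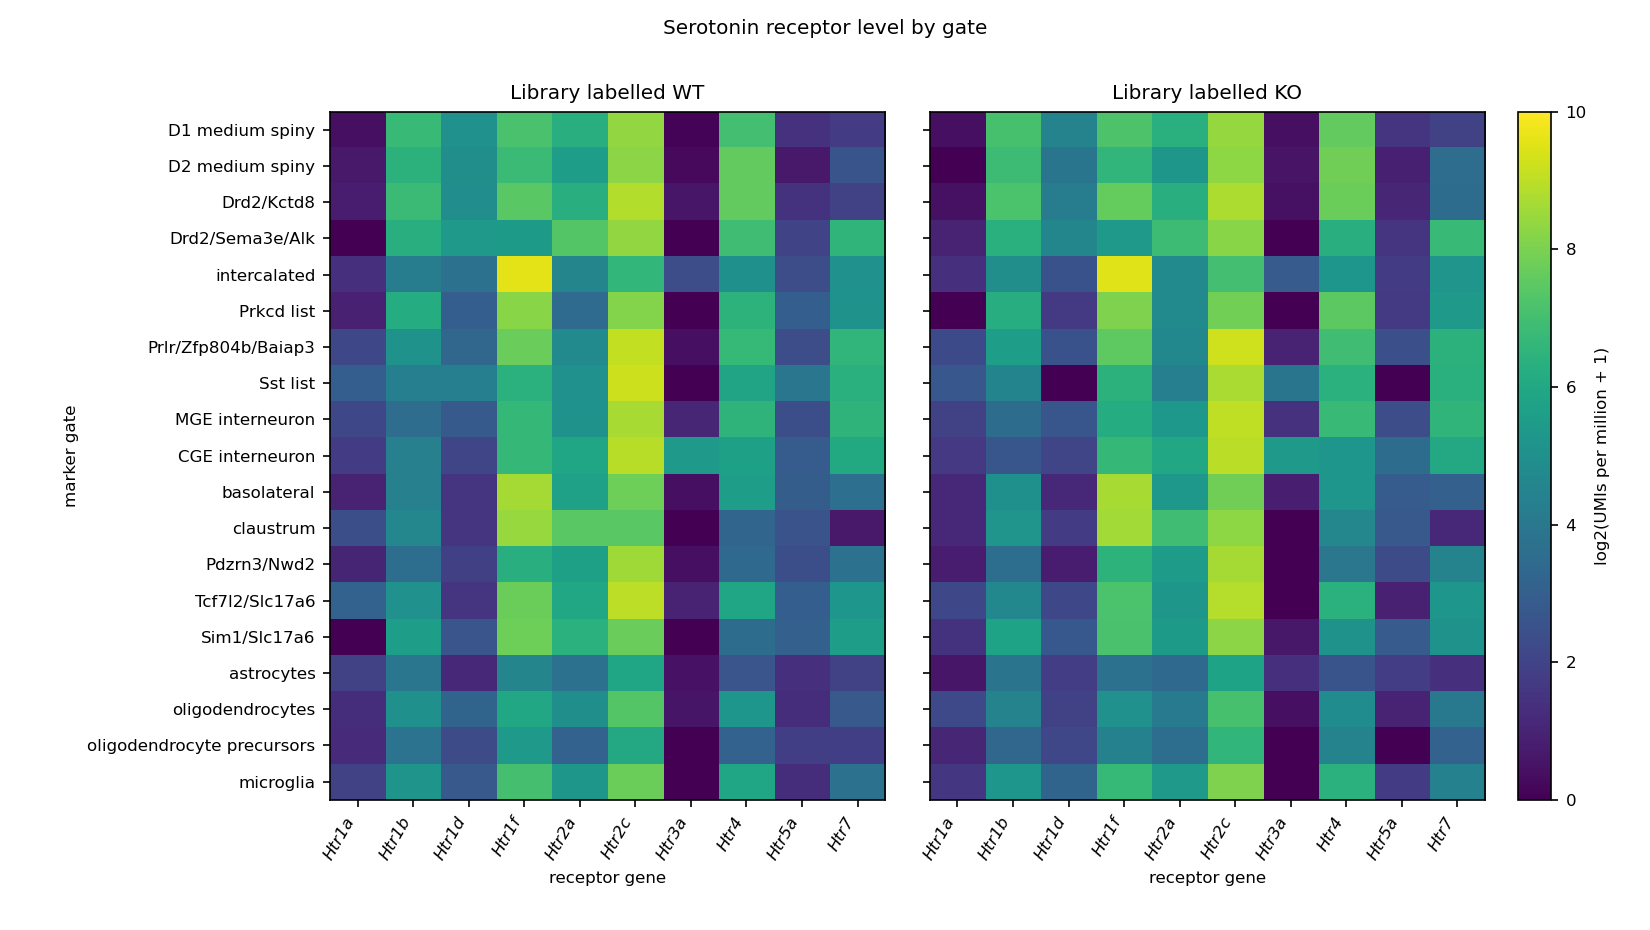
Level of each receptor gene (columns) in each marker gate (rows), as log2 of CPM plus 1 by colour, in the library labelled WT (left) and KO (right). Htr1f is brightest in the intercalated row (768 and 724 CPM) and Htr3a shows in the CGE interneuron row (40.1 and 40.7). Htr2c, like Htr1b, Htr1f, Htr2a, Htr4 and Htr7, has UMIs in every row.

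Htr1b, which sits largely on axon terminals, was highest in the medium spiny-type gates: Drd2/Kctd8 at 112 and 144 CPM, D1 at 110 and 137 and D2 at 84.8 and 115, which did not separate in both libraries. MGE interneuron-like nuclei had 11 and 10.7. D430036J16Rik lies antisense to Htr1b and had 2667 and 2077 UMIs against 4118 and 2986 for Htr1b. Whether counting used strand is not given in the sources used here, so the Htr1b levels are uncertain. Htr1d, its close relative, was highest in Drd2/Sema3e/Alk (42.1 and 23.2), D1 (32.5 and 21.4), Drd2/Kctd8 (29 and 17.7) and D2 (30.1 and 13.8), again without separating. Htr1a, a somatic and autoreceptor-type Gi receptor, had 139 and 102 UMIs in all, and Htr5a 252 and 178. In neurons Htr1a was at 1.58 and 1.69 CPM and Htr5a at 3.53 and 3.49. For Htr1a the neuron level lay inside the glial range (1.32 to 2.95 in WT, 0.512 to 3.56 in KO). No gates next to each other in the order separated for either gene, but of 171 pairs of gates 4 separated in both libraries for Htr1a and 6 for Htr5a. The other members had between 25 (Htr3a) and 137 (Htr1f) such pairs, and no share over all genes is given here. The Htr1a pairs set Prlr/Zfp804b/Baiap3 (22 and 20 UMIs, 3.50 and 3.74 CPM) and MGE interneuron-like nuclei (3.54 and 2.93) above D1 (4 and 2 UMIs, 0.331 and 0.318 CPM) and D2 (0.597 in WT and no UMI in KO). The Htr5a pairs set basolateral-like neurons (21 and 17 UMIs, 6.66 and 6.53 CPM) above D1 (20 and 12 UMIs, 1.66 and 1.91), D2 and Drd2/Kctd8, CGE interneuron-like nuclei (6.55 and 10.7) above D1 and D2, and Sim1/Slc17a6 above D2.

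Of the Gq-coupled receptors, Htr2c and Htr2a both had UMIs in every gate. Neuron gates held 98 to 603 CPM of Htr2c in WT and 127 to 615 in KO. At the top stood Prlr/Zfp804b/Baiap3 (535 and 615), the Sst list (603 and 419), Tcf7l2/Slc17a6 (518 and 468) and CGE interneuron-like nuclei (481 and 500), which did not separate in both libraries. Intercalated-like neurons, highest in Htr1f, were the lowest neuron gate for Htr2c (98 and 127). Clusters differed within gates: MGE cluster 8 held 733 and 784 and cluster 12 held 283 and 328, and D1 cluster 25 held 583 and 690 against 257 and 208 in cluster 22. Htr2a, the receptor through which classical hallucinogens act, was highest in claustrum-like neurons (171 and 120) and Drd2/Sema3e/Alk (157 and 114). These did not separate from each other, and the second lay above the D1 gate (75.4 and 80.2) in both libraries.

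Of the Gs-coupled receptors, Htr4 was highest in the D2 (194 and 230) and Drd2/Kctd8 gates (195 and 213), which did not separate, and lowest in astrocytes (5.25 and 5.12). D1 neurons had 127 and 191 as a whole and a wide range by cluster. Cluster 22, led by Gfra1 and Itgb8, held 477 and 504 CPM. Cluster 3, led by Brinp3, held 163 and 189, cluster 18 held 64.8 and 118 and cluster 25 held 31.8 and 73.5. Cluster 11, led by Il1rapl2 and Pparg, held 7.6 and 5.82, close to the astrocyte level. The clusters had the same order in both libraries. In the D2 gate, cluster 6 held 385 and 603 and cluster 1 held 154 and 154.

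**Figure D2:**
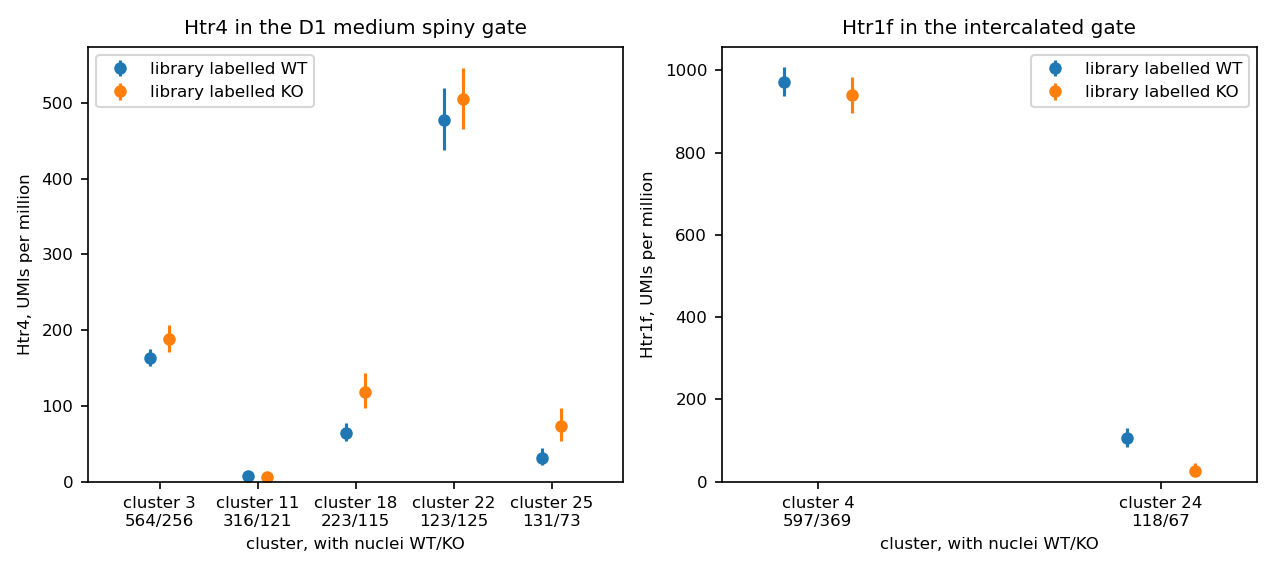
Htr4 in the clusters of the D1 medium spiny gate (left) and Htr1f in those of the intercalated gate (right), in CPM with 95% Poisson intervals, for the libraries labelled WT and KO; numbers under each cluster are WT and KO nuclei. Cluster 22 has the most Htr4 (477 and 504) and cluster 11 the least (7.6 and 5.82), and Htr1f is concentrated in cluster 4.

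Htr7 was highest in Drd2/Sema3e/Alk (91.3 and 105), MGE interneuron-like (89.9 and 93), Prlr/Zfp804b/Baiap3 (93.8 and 86.1) and Sst-list nuclei (79.5 and 79.4), without separation. D1 neurons had 2.4 and 2.86 and claustrum-like neurons 0.605 and 1.2. Within the MGE gate, cluster 12 held 143 and 128 and cluster 26 held 23.8 and 17.2. Htr3a, the channel subunit known from CGE interneurons, had 40.1 CPM in WT and 40.7 in KO in CGE interneuron-like nuclei, from 49 and 38 UMIs. Intercalated-like neurons had 4.18 and 6.29, and oligodendrocyte precursors and microglia had no UMI. The antisense gene Gm32335 had 6 and 7 UMIs over the whole libraries.

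The glial levels came with neuronal RNA. The microglia gate joined cluster 19, with 167 and 150 CPM of Drd2, 395 and 390 of Rgs9 and median depths of 8851 and 9436 UMIs, and cluster 20, with 934 and 1441 of the microglial gene P2ry12, 143 and 67.5 of Rgs9 and median depths of 1562 and 1553. Htr2c was 227 and 315 in cluster 19 and 133 and 37.8 in cluster 20. Oligodendrocytes had Htr2c at 161 and 136 with Rgs9 at 206 and 95.7, and astrocytes had 60.2 and 54.3 with Rgs9 at 49.3 and 67.6. The part of neuronal RNA in the glial receptor levels was not tested.

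Between the libraries, Htr1d was lower in KO. In inhibitory neurons it had 996 and 331 UMIs, or 21.6 and 11.3 CPM, and the log2 ratio of KO to WT was -0.94 (-1.12 to -0.76). In excitatory neurons it had 74 and 38 UMIs, 4.27 and 2.61 CPM, and the log2 ratio was -0.71 (-1.31 to -0.12). Of all genes with at least 50 UMIs over both libraries, 3.06% were lower past 1.5-fold in inhibitory and 3.4% in excitatory neurons. Htr1d reached 50 UMIs in 7 gates, all inhibitory, and its level was lower in all 7, past 1.5-fold in 6. These gates come from the same 2 libraries and do not replicate each other. No share of genes with all gates in 1 direction is given here. Gates with fewer than 50 Htr1d UMIs had ratios on both sides of 0. The intercalated gate had 54 and 12 UMIs and a log2 ratio of -1.41 (-2.45 to -0.49), and the D2 gate 151 and 32 UMIs and -1.13 (-1.72 to -0.57). The ratios were -0.60 (-0.89 to -0.32) in D1, -0.71 (-1.23 to -0.21) in Drd2/Kctd8, -0.86 (-1.57 to -0.20) in Drd2/Sema3e/Alk and -0.90 (-1.65 to -0.20) in Prlr/Zfp804b/Baiap3. MGE interneuron-like nuclei had 33 and 26 UMIs and -0.18 (-0.98 to 0.61), which spans 0. With the same subtype weights in both libraries the inhibitory ratio was -0.77. After thinning, 4.0% of WT and 2.0% of KO inhibitory nuclei had an Htr1d UMI (14.5% of WT and 8.36% of KO unthinned, median depths 7560 and 7897), against 0.257% of WT and 0.333% of KO astrocytes. Astrocytes were the lowest glial gate for Htr1d (1.21 and 2.56 CPM). Oligodendrocytes had 8.43 and 2.91 and microglia 5.91 and 8.40.

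**Figure D3:**
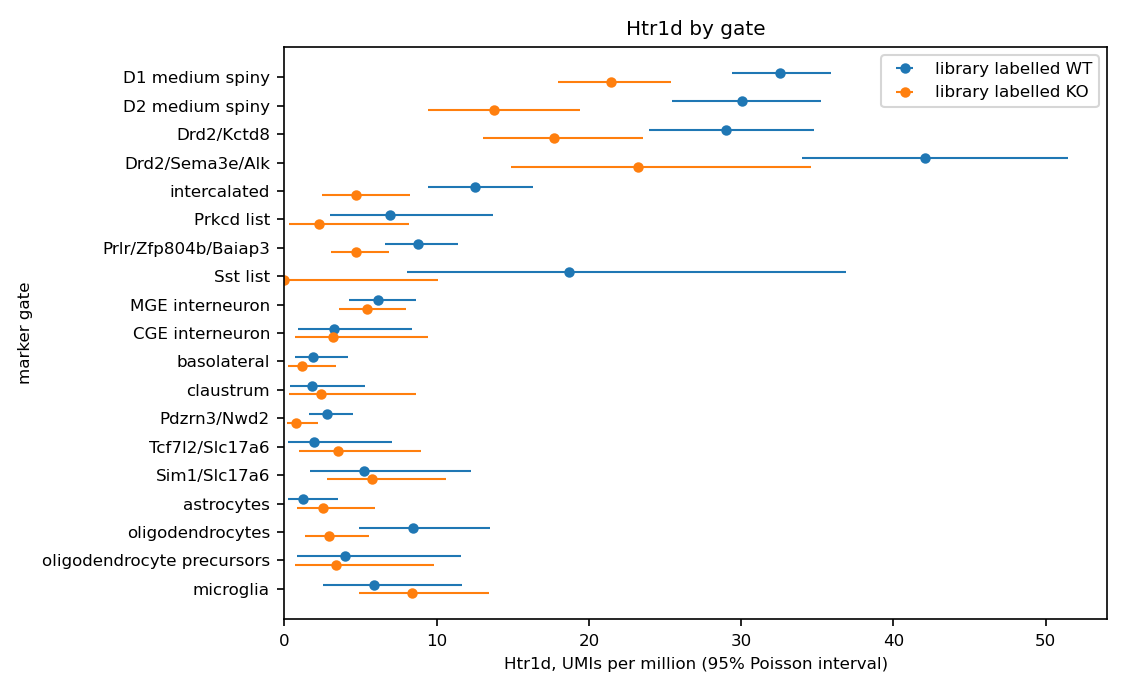
Htr1d in CPM in each marker gate with 95% Poisson intervals, in the library labelled WT (blue) and KO (orange). In the D2 gate, for example, the level is 30.1 in WT and 13.8 in KO, and the intervals of MGE interneurons overlap.

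Htr1d lies on chromosome 4 at 136423524 to 136444398 (GRCm38), in a stretch where some other genes also differed between the libraries. In inhibitory neurons its nearest neighbours Hnrnpr and Luzp1 had log2 ratios of -0.00 and 0.01, and Kdm1a 0.02. Asap3, 0.217 Mb away, was at -0.73, and Stpg1, 0.929 Mb away, at -0.90. Farther off, Crocc (2541 and 524 UMIs) was at -1.63 and Dcdc2b at -2.51, while Zfp990, 9.09 Mb away, had 1 UMI in WT and 61 in KO. These genes were picked after their values were seen. Within 10 Mb, 6.7% of 224 genes were lower and 7.14% higher past 1.5-fold, and beyond 20 Mb on the chromosome the shares were 3.0% and 4.29% of 466. Within 5 Mb the shares were 5.15% and 5.88% of 136, and within 20 Mb 5.2% and 7.69% of 481. Over all genes in inhibitory neurons 3.06% were lower and 5.36% higher, so the higher share was not particular to the 10 Mb stretch. Htr6, 2.65 Mb away, was at 0.01 (-0.30 to 0.32). The part of this stretch in the Htr1d ratio was not tested.

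**Figure D4:**
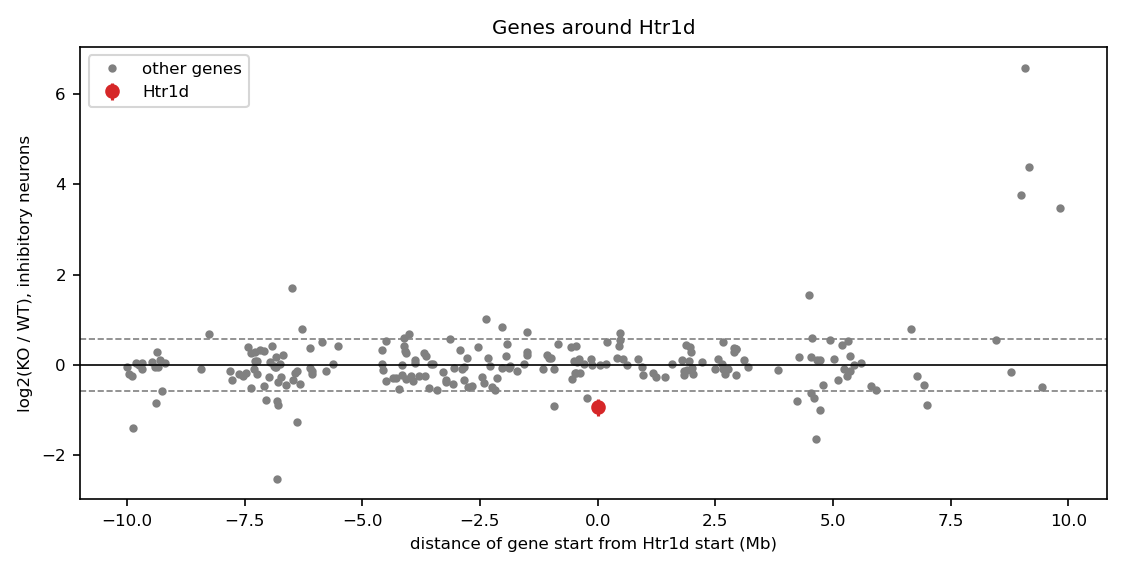
Log2 ratio of KO to WT in inhibitory neurons for genes within 10 Mb of Htr1d, against the distance of the gene start in Mb; dashed lines mark 1.5-fold. Htr1d (red, -0.94, with its 95% interval) lies below the line while the genes closest to it lie near 0, and 4 genes near 9 to 10 Mb are far above.

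Over all members, 107 pairs of a member and a gate had at least 50 UMIs. Of these, 15 were lower in KO past 1.5-fold and 12 higher. The median log2 ratio was 0.02, and 25 intervals lay below 0 and 25 above. No share of such intervals over all genes is given here, so these interval counts say nothing particular about the receptors. Over all genes and gates 5.0% of pairs were lower and 5.26% higher, and the median was -0.00. Apart from the 6 Htr1d pairs, the lower pairs, each with its log2 ratio and interval, were Htr1f in oligodendrocytes (-0.92, -1.32 to -0.52), astrocytes (-0.88, -1.64 to -0.17), Sim1/Slc17a6 (-0.69, -0.96 to -0.41) and Tcf7l2/Slc17a6 (-0.61, -0.92 to -0.32). The last of these was not uniform: Htr1f was lower in cluster 7 (-0.94, -1.31 to -0.57) and higher in cluster 27 (0.68, 0.01 to 1.38), and the gate's ratio turned to 0.41 under the first gate rule. Htr2a was lower in Sim1/Slc17a6 (-0.92, -1.40 to -0.44), oligodendrocytes (-0.90, -1.46 to -0.34) and Tcf7l2/Slc17a6 (-0.72, -1.30 to -0.14), where it turned to 0.50 under the first gate rule. Htr4 was lower in Drd2/Sema3e/Alk (-0.65, -1.02 to -0.28), a direction that turned under 3 other gate rules, and Htr7 in basolateral-like neurons (-0.68, -1.57 to 0.15), where 25 of its WT and 9 of its KO UMIs lay in cluster 23 (-1.35, -2.63 to -0.20) and cluster 28 was at 0.77 (-0.95 to 2.57).

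The higher pairs were Htr1b in intercalated (0.74, 0.26 to 1.22), basolateral-like (0.68, 0.19 to 1.18) and claustrum-like neurons (0.60, -0.13 to 1.33), and Htr2c in claustrum-like neurons (172 and 317 CPM, 0.88, 0.63 to 1.12). The basolateral-like rise lay in cluster 23 (11.8 and 42.9 CPM, 1.87, 0.91 to 2.93), while cluster 28 was at 0.14 (-0.52 to 0.80) and the gate's ratio turned to -0.47 when nuclei were thinned. Htr4 was higher in Sim1/Slc17a6 (10 and 58 UMIs, 1.67, 0.69 to 2.81), the Prkcd list (1.03, 0.66 to 1.41), Pdzrn3/Nwd2 (0.60, 0.04 to 1.15) and D1 (0.59, 0.48 to 0.70). In Sim1/Slc17a6 it was 0.06 without neighbour averaging, and in Pdzrn3/Nwd2 it turned to -0.27 with doublets kept and to -0.22 under the first gate rule.

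Htr7 was higher in oligodendrocytes (1.38, 0.45 to 2.43), D2 (1.11, 0.25 to 1.97), Pdzrn3/Nwd2 (0.71, 0.24 to 1.18) and microglia (0.66, -0.20 to 1.57). Single clusters held most of the UMIs behind each of these 4. In Pdzrn3/Nwd2, cluster 14 had 44 of 74 WT and 62 of 83 KO Htr7 UMIs (0.52, -0.06 to 1.11). Cluster 10 there had 27 and 17 (0.19, -0.78 to 1.12). In the microglia gate, cluster 19 had 17 WT and 39 KO Htr7 UMIs and the P2ry12-rich cluster 20 had 0 and 1. In the oligodendrocyte gate, cluster 19 had 10 of 12 WT and 37 of 48 KO UMIs; its nuclei there had Rgs9 at 460 and 260 CPM and the oligodendrocyte gene Mog at 168 and 152, against 86.2 and 55.5 for Rgs9 and 689 and 1089 for Mog in cluster 2. The same cluster held 89 of 122 WT and 72 of 99 KO Htr1f UMIs of the gate, and 46 of 62 and 28 of 51 for Htr2a. In the D2 gate, cluster 1, with 494 WT and 206 KO nuclei, had Htr7 at 1.54 and 1.71 CPM (0.15, -2.47 to 2.38), and cluster 6, with 111 and 48 nuclei, at 18.0 and 45.2 (1.33, 0.29 to 2.37). In oligodendrocytes as a whole Rgs9 was also lower in KO, 206 and 95.7 CPM, and its part in these ratios was not tested.

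Some of these ratios differed once the clusters of a gate were given the same weights in both libraries. In the D1 gate, cluster 22, with the most Htr4, was 9.01% of WT and 17.9% of KO nuclei, and once both libraries were given equal cluster weights the Htr4 ratio was 0.23 instead of 0.59. Inside cluster 22 it was 0.08 (-0.09 to 0.25), and inside clusters 18 and 25 it was 0.87 (0.47 to 1.26) and 1.21 (0.55 to 1.87). Only 19 of the 27 pairs had 2 or more clusters with at least 20 nuclei in each library. For the other pairs the value is the ratio inside 1 cluster, without any weighting. By these values 7 of the 27 pairs were no longer past 1.5-fold. With weights, besides Htr4 in D1, these were Htr1d in D1 (-0.54), Htr1f in Tcf7l2/Slc17a6 (-0.54) and Htr4 and Htr7 in Pdzrn3/Nwd2 (0.44 and 0.42). Inside 1 cluster they were Htr2a in Sim1/Slc17a6 (-0.53) and Htr4 in Drd2/Sema3e/Alk (-0.48). In Sim1/Slc17a6 the 1 such cluster held 42.1% of WT and 28.0% of KO UMIs of the gate. Htr2c in the claustrum-like cluster 30 was 0.99 (0.74 to 1.24).

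**Figure D5:**
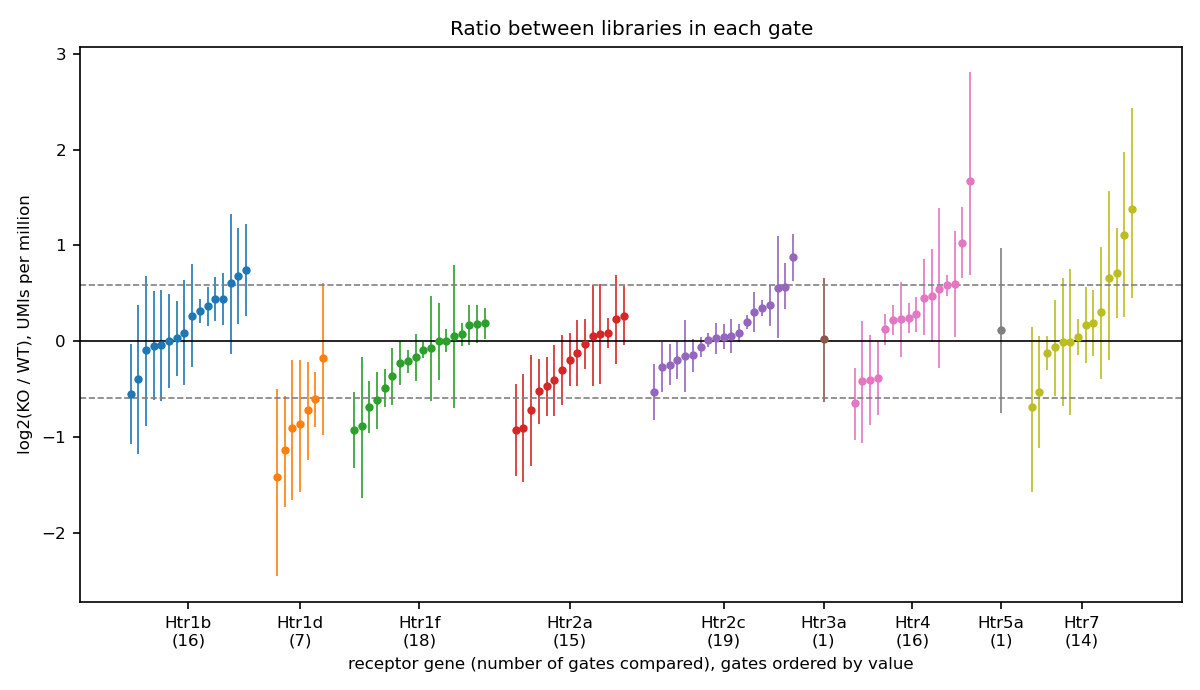
Log2 ratio of KO to WT for each member in each gate with at least 50 UMIs, with 95% counting intervals and gates ordered by value; dashed lines mark 1.5-fold. All 7 Htr1d points lie below 0, and the other members with 14 or more gates have points on both sides.

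Many neurons held UMIs of more than 1 receptor. After thinning, 30.5% of WT and 32.3% of KO inhibitory nuclei had UMIs of 2 or more members, against 2.31% of WT and 0.833% of KO astrocytes. Of the glial gates, microglia, which held neuronal RNA, had the largest share, 10.9% of WT and 17.2% of KO nuclei. The Drd2/Kctd8 gate had the highest share (46.9% of WT and 50% of KO) and Pdzrn3/Nwd2 the lowest of the neuron gates (12.9% of WT and 14% of KO). In D1 neurons Htr4 was found in 25.7% of nuclei with an Htr1f UMI and 15.8% of those without in WT, and in 32.6% of nuclei with an Htr1f UMI and 19.1% of those without in KO. In intercalated-like neurons Htr2c was found in 10.3% of nuclei with an Htr1f UMI and 17.9% of those without in WT, and in 9.02% of nuclei with an Htr1f UMI and 19.9% of those without in KO. Both gates hold clusters that differ in these genes, so a share over the gate is not a share within 1 cell type. These are 2 of many pairs compared, and others differed little. In D1, Htr2c was found in 39.0% of WT nuclei with an Htr2a UMI and 41.1% of those without. In KO these shares were 40.6% and 42.2%.

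The genes whose levels followed each member most closely over the 19 gates are given with Pearson's r of log2(CPM + 1) in WT and in KO, as a description over gates that share 2 libraries. For Htr1b they were Kcnip2 (0.90 and 0.97), Nkap (0.88 and 0.89), Stk26 (0.90 and 0.86). For Htr1d they were Cyp2s1 (0.84 and 0.92), Mme (0.86 and 0.83), Pde1b (0.84 and 0.80), and for Htr1f Fam126b (0.86 and 0.89), Teddm2 (0.87 and 0.85), Pkp2 (0.80 and 0.81). Htr2a was followed by Pcsk2os2 (0.80 and 0.81), Zfp385b (0.79 and 0.85), Aff3 (0.80 and 0.79), and Htr2c by Cntnap2 (0.88 and 0.90), Snhg14 (0.82 and 0.87), Rian (0.82 and 0.90). Htr4 was followed by Nfx1 (0.89 and 0.85), Kcnab1 (0.84 and 0.90), Elmod1 (0.84 and 0.83), and Htr7 by Cep135 (0.80 and 0.81), Stac (0.91 and 0.80), Amy1 (0.79 and 0.83). For the sparse genes they were Msantd2 (0.75 and 0.74), Capns1 (0.77 and 0.74), Metap1 (0.73 and 0.79) with Htr1a and Anxa7 (0.83 and 0.72), Ptpn2 (0.72 and 0.72), Ggnbp2 (0.84 and 0.69) with Htr5a. Among the members, the pair with the highest lower r was Htr1b and Htr4 (0.66 and 0.68).

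The other genes of serotonin signalling were compared in all neurons together, where 5.76% of all genes with at least 50 UMIs were higher and 3.23% lower past 1.5-fold. With lists of 3 to 18 compared genes, the counts below are near these shares and say nothing particular about a list. Among 9 genes of synthesis, transport and breakdown, 6 were compared and none passed; Maoa, which breaks serotonin down, had 15.2 and 18.5 CPM. Tph2, the neuronal synthesis enzyme, had 8 and 2 UMIs, and Slc6a4, the serotonin transporter, 1 and 0. None of 9 G protein genes passed, and Gnao1 had 441 and 359 CPM. Of 17 effectors only the potassium channel gene Kcnj5 was higher (42 and 45 UMIs, 0.63, -0.01 to 1.27), and Plcb1, a phospholipase of the Gq pathway, had 2537 and 2246 CPM. None of 18 partners and regulators passed, and Cnksr2 had 881 and 937 CPM. Of the 4 other receptor genes, 3 were compared and none passed, and Htr6 had 4.88 and 4.68 CPM. In 1 neuron class only, Slc29a4 was higher in inhibitory neurons (3.59 and 5.43 CPM), Slc22a3 higher in excitatory (2.42 and 3.99 CPM) and S100a10 lower in excitatory neurons (7.61 and 4.47 CPM); these 3 were picked after their values were seen, and whether the classes differ was not tested.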

How the data were processed

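The submitters' processing notes name Cell Ranger 6.0.0 and mm10; the annotation release and the use of strand are not stated there. The deposited tables hold raw UMI counts per gene and nucleus, 85124128 UMIs in WT and 60402979 in KO. Of 32285 gene IDs 32158 had a symbol. Gene positions are from GENCODE M21.

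Nuclei with under 500 genes, over 5% mitochondrial UMIs or a Scrublet doublet call (524 WT, 212 KO) were removed with scanpy 1.11.5. Marker levels were averaged over each nucleus and its 15 nearest neighbours, a step the planned rule did not have, then standardised, and the best list was taken. The marker lists were not changed, but the rule was: it is the fourth version. Each version was judged after the nuclei had been seen, by unassigned counts, clusters and markers. Unassigned nuclei were 3553 WT and 1936 KO, then 1995 and 1124, then 1063 and 658, and 915 and 562 as used. Receptor totals per library had been seen by then, and receptor levels per gate were first tabulated under the fourth version. The other 3 versions are given among the alternatives. Of 12045 neurons, 1884 lay within 0.1 of the subtype lead and 1461 had no subtype.

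UMIs were summed per gate and library. Ratios have exact conditional binomial intervals, checked on simulated data, and needed 50 UMIs. Named were all members, pairs past 1.5-fold, the 3 most alike genes of members with 200 UMIs and, in the other lists, genes past 1.5-fold or with the most UMIs in their list, which is not a comparison per length. Thinning to 2000 UMIs left out 780 WT and 1348 KO nuclei. TMM (edgeR 4.0.16) and median-of-ratios (DESeq2 1.42.0) served as alternative scalings. The members and lists were chosen with earlier results of these data known. The clusters within gates, the window around Htr1d, the promoters and motifs and the thinning depth were chosen after values were seen.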

Additional observations from a re-analysis of the deposited data

How the results depend on the processing

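Under the alternatives run, the Htr1d log2 ratio lay between -1.04 and -0.77 in inhibitory and between -1.13 and -0.49 in excitatory neurons, where thinning gave no value. Under gate rules 1, 2 and 3 it was -0.94, -0.90 and -0.94 in inhibitory neurons, and 3, 5 and 5 inhibitory gates had Htr1d lower past 1.5-fold, against 6. Counts of pairs moved more. Higher pairs numbered 7 with doublets kept, 7 with a minimum of 100 UMIs and 6 under rule 1, against 12. Lower pairs numbered 7 with cluster majority gates and 9 at the lower resolution, against 15. A fold of 2 left 2 lower pairs, 4 higher pairs and 2 Htr1d gates, and thinning, which leaves fewer UMIs, left 5, 3 and 1. Of 751 alternative ratios 684 stayed within the reported interval, 59 moved out and 8 turned in direction. Htr4 in Drd2/Sema3e/Alk was 0.27 without neighbour averaging, 0.38 under rule 1 and 0.37 at the lower resolution. Htr4 in Pdzrn3/Nwd2 was -0.27 with doublets kept and -0.22 under rule 1, under which Htr1f and Htr2a in Tcf7l2/Slc17a6 were 0.41 and 0.50. Htr1b in basolateral-like nuclei was -0.47 when thinned. The cause was not tested. Of 210 alternative levels in the highest gate, 168 stayed within the reported interval and 42 moved out. The highest KO gate for Htr2a became Drd2/Sema3e/Alk with cluster majority gates, a larger lead of the best list, rules 2 and 3 and thinning. Htr1b was highest in D1 in both libraries without neighbour averaging, under rule 1 and with cluster majority gates. With the same cluster weights, or inside the 1 cluster that some gates had, 20 of the 27 pairs stayed past 1.5-fold and none turned. Only 19 of the 27 had 2 or more clusters to weight. Gates under 50 nuclei gave no value, a minimum applied to the alternatives after their values were seen: the Sst list with 1000 genes and under rule 2, the Prkcd list under rule 1, Sim1/Slc17a6 under rule 3, and these and Tcf7l2/Slc17a6 with cluster majority gates, with Drd2/Kctd8 too at the lower resolution. The earlier gate rules, gates without averaging, the lower resolution, the fold of 2 and the cluster weights were added after seeing the data. No paired analysis was possible because each genotype has 1 library, and for the same reason no library could be left out.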
